A study of Mus musculus with 8 samples.

Results

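Wdr83 and the genes that overlap it or lie beside it on mouse chromosome 8, namely Dhps, Wdr83os and Man2b1, were followed in mouse embryonic stem cells through 8 RNA-seq libraries. They are 4 of the 55291 genes counted in each library, and all 4 were among the 16371 genes with enough counts to be tested. The genes were chosen by their position at Wdr83 and by their CPM per library (counts scaled to the library size), in which the DHX35-dTAG DMSO replicate 1 library had already been singled out. Comparisons that hold this library are therefore given as descriptions without a p-value.

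The cells came from 2 edited lines, DHX35-dTAG and GPATCH1-dTAG, in which the named protein carries an FKBP12-derived degron at its own gene. Through this tag, the compound dTAG-13 brings the protein to a ubiquitin ligase. Cells of each line received dTAG-13 at 200 nM, or DMSO as solvent control, over 4 h. The DMSO cells thus also carried the edit, and no unedited cells were among the libraries. There were 2 libraries in each of 4 groups, and no label ties them to separate cultures or clones, so the p-values measure only the spread between these libraries, which may be technical. E14 is the cell line in the labels, but the culture conditions there are given for R1 cells. Edited lines were grown from single colonies, and which clone gave each library is not given in the sources used here.

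WDR83, also called MORG1, is a WD-repeat protein that in fission yeast forms a splicing unit with the helicase DHX35 and its G-patch partner GPATCH1, and it is also known as a scaffold of the MAP kinase pathway. WDR83OS, also called Asterix, is a small membrane protein of the PAT complex, which chaperones multipass membrane proteins in the endoplasmic reticulum. DHPS is the deoxyhypusine synthase that starts the hypusine modification of the translation factor eIF5A, and MAN2B1 is the lysosomal alpha-mannosidase that trims mannose from glycoproteins. The WDR83 gene is thus crowded by neighbours of other pathways, and transcripts of both strands share bases at each of its ends.

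All 4 genes lie on chromosome 8 of GRCm38, as annotated by GENCODE M21. Dhps (ENSMUSG00000060038.14) runs on the plus strand from 85071757 to 85075162. Wdr83 (ENSMUSG00000005150.16) runs on the minus strand from 85075035 to 85081306. Wdr83os (ENSMUSG00000059355.13) runs on the plus strand from 85080740 to 85082339, and Man2b1 (ENSMUSG00000005142.10) follows on the same strand from 85083270 to 85098282. At its 3′ end, Wdr83 meets Dhps tail to tail over 128 bases, from 85075035 to 85075162, which lie in the UTRs of the first listed transcript of both genes. At its 5′ end, Wdr83 meets Wdr83os head to head, and their spans overlap over 567 bases from 85080740 to 85081306. Exons of both genes cover 539 of these bases, but the first listed coding transcripts share only 7, because nearly all of the overlap comes from the retained-intron transcript of Wdr83 with the longest span. Man2b1 overlaps neither gene, and 930 bases separate it from Wdr83os. No other annotated gene overlaps any of the 4.

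**Figure D1:**
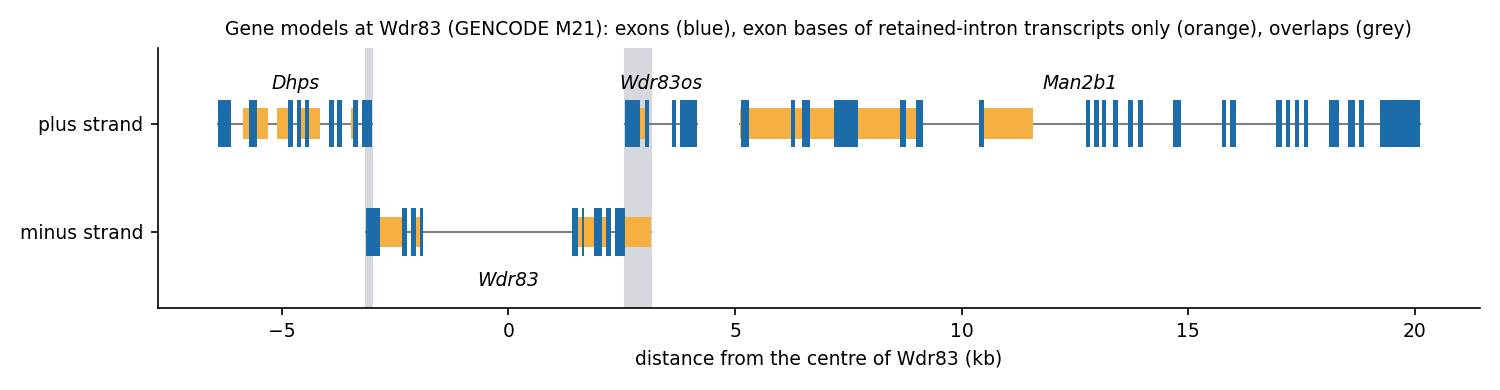
Gene models of the 4 genes by strand, with the distance from the centre of Wdr83 in kb on the horizontal axis. Blue boxes are exons, orange boxes are exon bases found only in retained-intron transcripts, and grey bands are the overlaps of Wdr83 with Dhps (128 bases) and with Wdr83os (567 bases).

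The bases shared with the opposite strand matter for the counts, because the strand setting of the authors' counting is not given in the sources used here. Without strand, reads from these bases cannot be assigned to 1 gene. The shared bases made up 23.7% of the exon bases of Wdr83 (667 of 2818), 52.3% of those of Wdr83os (539 of 1031) and 5.51% of those of Dhps (128 of 2324), while Man2b1 shared 0 of 8026. Retained-intron transcripts are also frequent here. They are 6 of the 10 transcripts of Wdr83, 6 of 8 of Dhps, 3 of 6 of Man2b1 and 1 of 3 of Wdr83os, and they alone account for 53.7% of the exon bases of Wdr83. At least this share was reached by 5.77% of the protein-coding genes tested.

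The start sites of Wdr83 and Wdr83os in RefSeq lie back to back, so that 1 short stretch is the upstream sequence of both genes. It covers the 216 bases of GRCm38.p6 from 85080747 to 85080962, between the Wdr83 start at 85080746 and the Wdr83os start at 85080963, and 45.8% of them are G or C. The RefSeq promoter windows of the 2 genes, taken from 250 bases before to 50 bases after each start, overlap over 284 of their 300 bases. Windows that overlap one of the opposite strand were found for 3547 of 32851 promoters (10.8%). The motif matches in or at the end of the stretch between the 2 starts are shown, each within 30 bases of the plus strand and with the match in capitals. This stretch was chosen after Wdr83 and Wdr83os were seen to stand higher in the library singled out above. Its part in their levels was not tested. The first lies at chr8:85080949-85080978 and holds the ETS family core CCGGAAG, and the second lies at chr8:85080888-85080917 and holds a CCAAT box, which reads CCAAT on the minus strand.

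ETS core: cattcccacgcCCGGAAGttgctcttctag
CCAAT box: cctctcactgctATTGGgaacagaagcgct

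The ETS core begins 3 bases before the start of Wdr83os and runs across it into the transcript, and the CCAAT box begins 63 bases before that start. Both matches are in the windows of both genes. Searched on both strands, CCGGAAG is also in the window of Dhps but not in that of Man2b1, and in 8.86% of all promoters. CCAAT is in the window of Man2b1 but not in that of Dhps, and in 37.4% of all promoters. The TATA box TATAAA is in none of the 4 windows and in 13.6% of all promoters. These matches describe the letters of the windows, and no binding was measured. GENCODE places the first Wdr83os transcript further upstream, at 85080740, so this stretch lies within that transcript model.

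The libraries held between 12014203 and 14994173 counts. DHX35-dTAG DMSO replicate 1 stood apart, with a mean correlation of 0.976 with the other libraries against 0.988 to 0.990 for those. Small nuclear, nucleolar and Cajal body RNA genes took 0.366% of its counts, against 0.120% to 0.143% elsewhere, and mitochondrial mRNAs took 0.272%, against 0.758% to 1.13%. Of the tested genes, 2125 (12.98%) were highest in it by at least 0.5 on the log2 scale and 1706 (10.4%) lowest by as much, against 1.48% to 2.53% and 1.89% to 4.06% in the other libraries. All 8 embryonic stem cell markers examined, among them Pou5f1 and Nanog, were above 1 CPM in every library, with a summed level of 4565 CPM in that library and 3882 to 4242 in the others. The summed levels were 28.9 to 41.7 CPM for 4 trophoblast genes, 2.57 to 4.39 for 4 endoderm genes and 10.7 to 15.0 for 5 fibroblast genes, of which 2, 0 and 2 were above 1 CPM in every library, with single genes up to 36.5, 2.12 and 11.6 CPM. Replicate 1 of DHX35-dTAG cells in DMSO had 41.7, 2.73 and 13.5. At least 1 gene of each of these 3 lists was at 0 in some library.

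Wdr83, the gene of the WD-repeat partner of DHX35 and GPATCH1 in the fission yeast unit, was expressed at an even level in 7 of the 8 libraries and stood far above it in 1. In DHX35-dTAG cells, its level was 29.9 and 14.3 CPM in the DMSO libraries and 15.2 and 13.8 CPM in the dTAG-13 libraries, where the library size was scaled by TMM. In GPATCH1-dTAG cells, it was 14.6 and 14.2 CPM in DMSO and 16.8 and 13.9 CPM in dTAG-13. The first DMSO library of DHX35-dTAG cells was thus the only one outside the range of 13.8 to 16.8 CPM. The raw counts were 405 and 223 in its group, 178 and 156 with dTAG-13, 226 and 161 in GPATCH1-dTAG cells in DMSO and 271 and 193 with dTAG-13.

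Wdr83os, the gene of the PAT complex subunit on the other side of the stretch between the RefSeq starts, was also highest in that library, but by less. Its level in DHX35-dTAG cells was 18.6 and 13.8 CPM in DMSO and 13.5 and 13.4 CPM in dTAG-13. In GPATCH1-dTAG cells, it was 11.4 and 13.5 CPM in DMSO and 13.3 and 11.02 CPM in dTAG-13. Apart from the high library, all values lay between 11.02 and 13.8 CPM, and the 2 lines overlapped with both treatments pooled. Within dTAG-13 they did not (lower in GPATCH1-dTAG cells, as were 23.9% of all genes), nor within DMSO. The raw counts of Wdr83os were 251, 214, 158 and 152 in DHX35-dTAG cells and 176, 153, 214 and 153 in GPATCH1-dTAG cells, in the same order.

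Dhps, the gene of the hypusine synthase, meets Wdr83 at its tail and showed no such excess. Its level in DHX35-dTAG cells was 41.2 and 38.9 CPM in DMSO and 38.1 and 36.5 CPM in dTAG-13. In GPATCH1-dTAG cells, it was 39.9 and 42.2 CPM in DMSO and 42.6 and 38.3 CPM in dTAG-13. The 8 values of Dhps spanned a narrow range, from raw counts of 413 to 688, and the DHX35-dTAG DMSO replicate 1 library lay inside it.

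Man2b1, the gene of the lysosomal mannosidase, was also even. Its level in DHX35-dTAG cells was 45.5 and 42.2 CPM in DMSO and 43.1 and 37.7 CPM in dTAG-13. In GPATCH1-dTAG cells, it was 45.3 and 43.8 CPM in DMSO and 47.4 and 45.7 CPM in dTAG-13, from raw counts of 426 to 765 over the 8 libraries. The lowest value was replicate 2 of DHX35-dTAG cells in dTAG-13 and the highest was GPATCH1-dTAG dTAG-13 replicate 1.

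**Figure D2:**
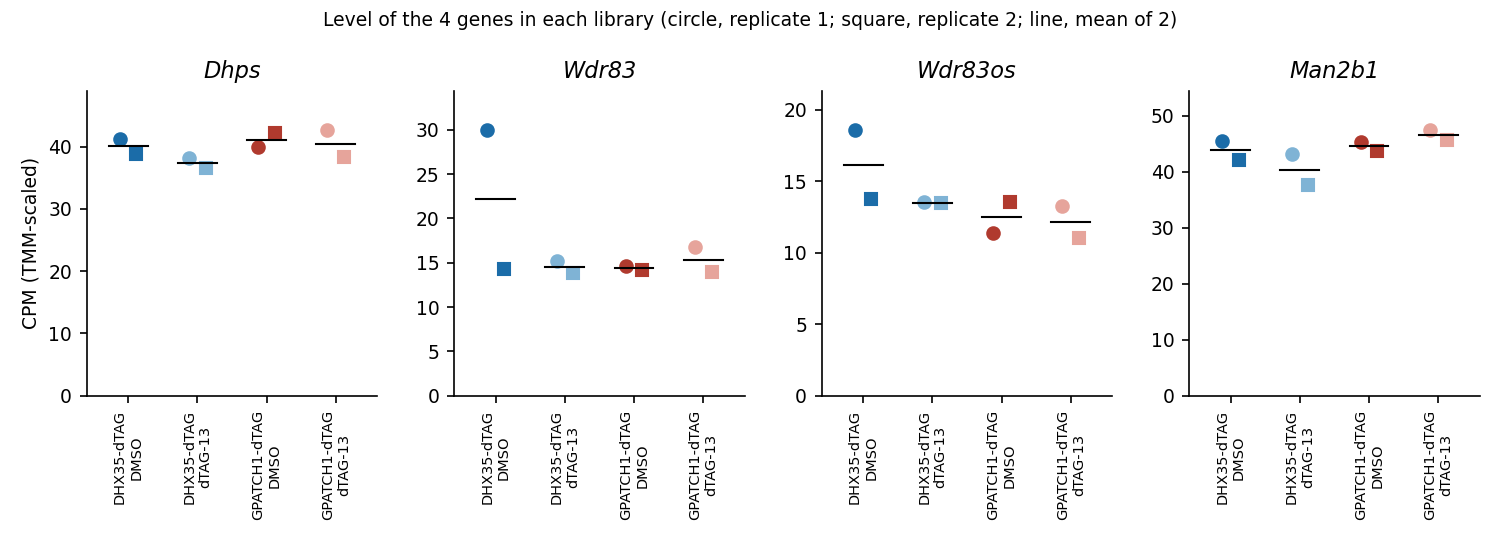
Level of each gene in CPM (TMM-scaled, linear axis from 0) in the 8 libraries, with 1 colour per group, circles for replicate 1, squares for replicate 2 and lines for the mean of 2. Wdr83 stands at 29.9 CPM in DHX35-dTAG DMSO replicate 1 and at 13.8 to 16.8 CPM elsewhere, while Dhps and Man2b1 show no library that far from the rest.

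The spread over libraries shows the same order. Over all 8 libraries, the coefficient of variation was 32.9% for Wdr83, 16.8% for Wdr83os, 6.81% for Man2b1 and 5.40% for Dhps. Over the 7 libraries without DHX35-dTAG DMSO replicate 1, it was 7.06% for Wdr83, 8.83% for Wdr83os, 7.20% for Man2b1 and 5.63% for Dhps, so that the 4 genes were then about equally steady. The group means of Wdr83 were 22.1 ± 11.03 CPM (SD, n = 2) in DHX35-dTAG DMSO, 14.5 ± 1.00 in DHX35-dTAG dTAG-13, 14.4 ± 0.276 in GPATCH1-dTAG DMSO and 15.4 ± 2.05 in GPATCH1-dTAG dTAG-13. The mean of the first group describes neither of its libraries. For Wdr83os the group means in the same order were 16.2 ± 3.39, 13.5 ± 0.0452, 12.5 ± 1.51 and 12.1 ± 1.58 CPM (SD, n = 2). For Dhps they were 40.1 ± 1.66, 37.3 ± 1.13, 41.1 ± 1.59 and 40.5 ± 3.05 CPM (SD, n = 2), and for Man2b1 43.8 ± 2.37, 40.4 ± 3.83, 44.5 ± 1.09 and 46.5 ± 1.23 CPM (SD, n = 2). In such bulk libraries, a lower level from fewer expressing cells and a lower level per cell cannot be told apart.

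Levels of different genes can be compared only per length, as RPKM, which are CPM per kb. On the union of each gene's exons, the median over the 7 libraries without DHX35-dTAG DMSO replicate 1 was 16.7 RPKM for Dhps, 13.04 for Wdr83os, 5.45 for Man2b1 and 5.09 for Wdr83. The ranges of Dhps (15.7 to 18.3) and Wdr83os (10.7 to 13.3) did not meet, while those of Man2b1 (4.69 to 5.91) and Wdr83 (4.90 to 5.96) overlapped. The order of the upper pair depends on which bases are counted as length. With the bases shared with the opposite strand left out of the length but the counts unchanged, since counts per base are not given, Wdr83os had 27.3 RPKM and Dhps 17.7, so that this value of Wdr83os is raised by any reads counted in the shared bases. Likewise with unchanged counts, on the first listed coding transcript alone Dhps had 29.2 and Wdr83os 14.6. Wdr83 had 6.66 and 11.6 RPKM by these lengths and Man2b1 5.45 and 11.5. The medians of Wdr83 and Man2b1 were thus below those of both other genes by all 3 lengths, and the first DMSO library of DHX35-dTAG cells brought Wdr83 to 10.6 RPKM on the exon union.

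The composition of the counts within the locus is given next, as a description, since the library that differs was singled out from the same values. Wdr83 took 22.1% of the 1830 counts of the 4 genes in DHX35-dTAG DMSO replicate 1 (95% Wilson interval 20.3% to 24.1%). In the other 7 libraries it took 12.5% to 13.98%, with upper bounds up to 15.8%. The share of Wdr83os in that library was 13.7% (12.2% to 15.4%), against 10.1% to 13.3% in the others. The intervals treat each count as independent and do not hold the variation between libraries. Reads without molecular identifiers are not independent molecules, so the intervals may be too narrow even for counting error.

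**Figure D3:**
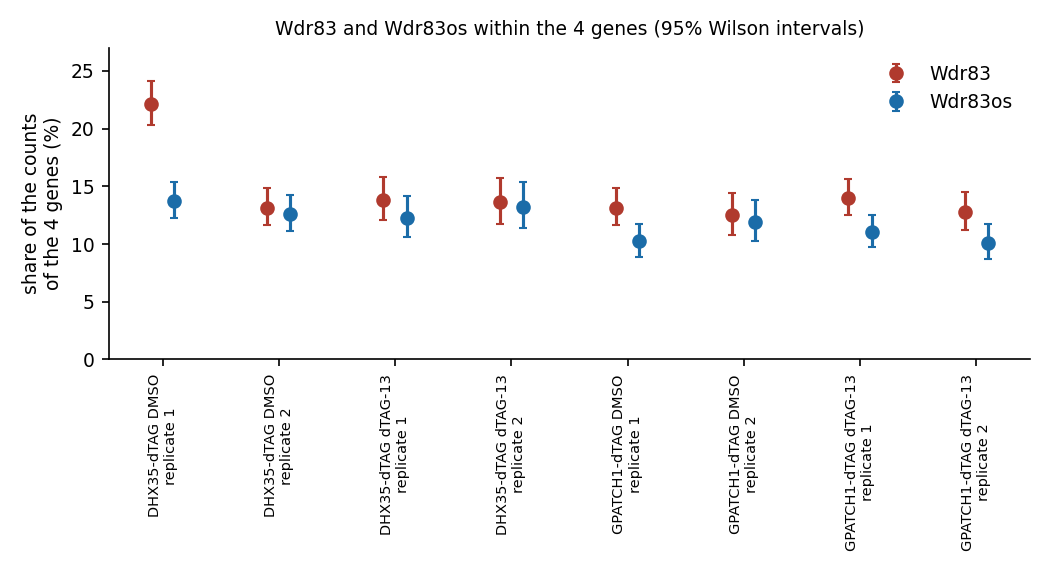
Share of Wdr83 (red) and Wdr83os (blue) in the summed counts of the 4 genes, in percent on an axis from 0, for each library with 95% Wilson intervals. Wdr83 stands at 22.1% in DHX35-dTAG DMSO replicate 1, the library singled out by its level, and at 12.5% to 13.98% in the others. The intervals treat each count as independent and leave out the variation between libraries.

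Ratios between pairs of genes, which do not depend on the library size, show which gene departed. The ratio of Wdr83 to Dhps counts was 0.726 in DHX35-dTAG DMSO replicate 1 and 0.338 to 0.399 in the other libraries. The ratio of Wdr83 to Wdr83os was 1.61 there and 1.03 to 1.28 elsewhere, and that of Wdr83os to Dhps was 0.450 there and 0.285 to 0.368 elsewhere. The ratio of Dhps to Man2b1 was 0.906 in that library, inside the range of 0.839 to 0.970 of the others. In that library, Wdr83 and Wdr83os were therefore both high relative to Dhps, and Wdr83 was high relative to Wdr83os.

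As a log2 deviation from the mean of the other 7 libraries, DHX35-dTAG DMSO replicate 1 stood at 1.02 for Wdr83 (2.03-fold), 0.53 for Wdr83os (1.44-fold), 0.063 for Dhps and 0.066 for Man2b1. Across the whole table, 584 of the 16371 tested genes (3.57%) deviated upward in this library at least as much as Wdr83, and 12.8% at least as much as Wdr83os. For no other library did Wdr83 deviate by more than 0.246 in either direction. Among the 12790 genes with a coding transcript, the share that reached the deviation of Wdr83 in DHX35-dTAG DMSO replicate 1 was smaller. It ran from 0.532% to 2.44% over 4 classes of GC content. Wdr83 was thus not alone in such an excess.

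Properties of the genes that move with the deviations of this library were measured beside it. Among 12790 genes with a coding transcript, the median deviation was -0.183 in the 3198 genes with the lowest GC content and 0.188 in the 3198 with the highest. It was 0.159 in the 3198 shortest and -0.108 in the 3198 longest. Wdr83 is among the shortest, where 3.19% of the genes reached its deviation, and in the second highest of 4 GC classes, whose median was 0.048 and where 1.38% did. In the longer classes, this share was 0.875%, 0.657% and, among the longest, 0.375%. In the lowest, second lowest and highest GC classes it was 0.532%, 0.751% and 2.44%. By its longest coding transcript, Wdr83 is short (1238 bases, against a median of 3161) and of fairly high GC content (55.0%, against 50.6%). Dhps is almost the same in both (1333 bases, 55.5%) and deviated by 0.063 only. Wdr83os has 922 bases and 50.7% GC, and Man2b1 has 3822 bases and 54.1%. Among the 1144 genes in both the shortest and the most GC-rich of these classes, which include Dhps but not Wdr83, the median deviation was 0.325, and 4.90% reached that of Wdr83. The part of GC content and length in the excess of Wdr83 was not tested.

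The deviations were also set beside the retained-intron annotation. In the 1749 protein-coding genes with over 40% of their exon bases from retained-intron transcripts alone, the class of Wdr83, the median deviation of DHX35-dTAG DMSO replicate 1 was -0.017. In the 5379 genes without such bases it was 0.013. A deviation of at least 0.5 was reached by 7.49% of the former and 12.9% of the latter. Counts per gene hold no separate value for the introns of Wdr83, and the part of retained introns in its excess was not tested.

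The wider neighbourhood was examined next, since the spans of 38 other annotated genes lie within 250 kb of Wdr83, of which 20 were tested. In DHX35-dTAG DMSO replicate 1, 16 of these 20 deviated upward, with a median of 0.326, against 50.7% of all tested genes. Their deviations ran from -0.317 for Orc6, a subunit of the origin recognition complex, to 1.08 for A230103J11Rik, a gene on the minus strand at -21.4 kb from the centre of Wdr83. Only A230103J11Rik reached the deviation of Wdr83, at a low level of 3.25 CPM against 0.936 to 1.95 in the other libraries, and the next were Fbxw9, an F-box gene, at 0.645 and Rnaseh2a, a subunit of ribonuclease H2, at 0.547. Of the 19 neighbours with a coding transcript, the median GC content was 54.1%, again above the 50.6% of all genes. Dhps and Man2b1 thus deviated less than most genes around them, and the part of GC content in the neighbours' values was not tested.

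**Figure D4:**
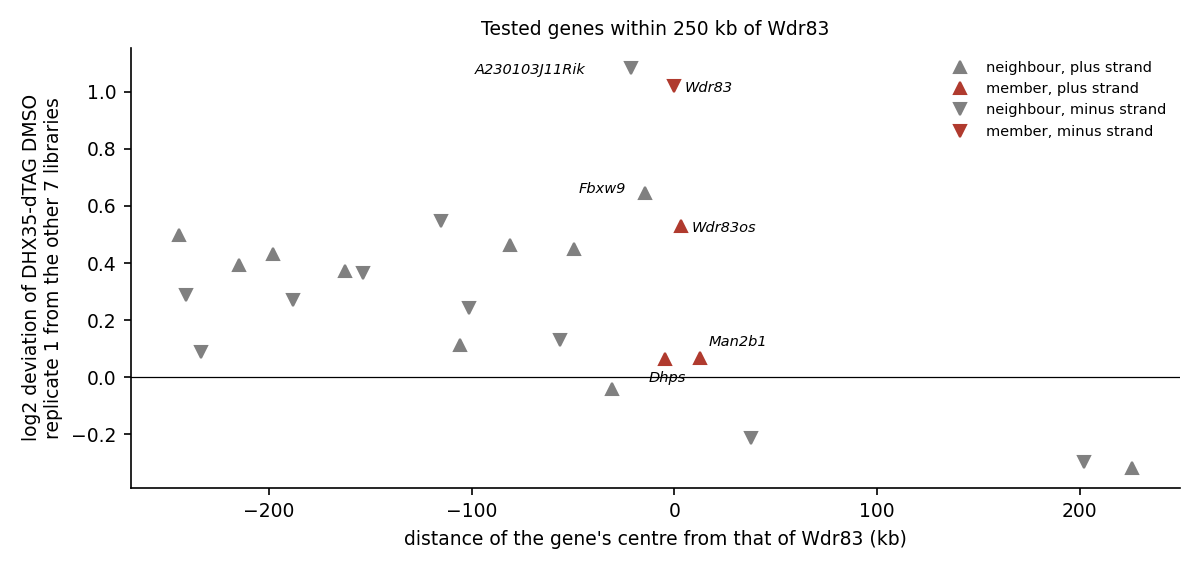
Log2 deviation of DHX35-dTAG DMSO replicate 1 from the mean of the other 7 libraries (vertical axis) against the distance of each gene's centre from that of Wdr83 in kb (horizontal axis), for the 4 genes (red) and 20 tested neighbours (grey), with upward triangles for the plus strand and downward triangles for the minus strand. Of the neighbours, 16 lie above 0, and only A230103J11Rik (1.08) lies above Wdr83 (1.02).

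The response to GPATCH1 depletion was tested with edgeR's quasi-likelihood test on all tested genes, in a comparison that does not include the library singled out. None of the 4 genes passed an adjusted p of 0.05, and over all genes 0 of 16371 (0%) did, with 486 (2.97%) under an unadjusted p of 0.05. DESeq2 also called 0 genes. The count rests on the libraries that share the spread, since edgeR called 127 genes with only the 4 libraries compared and 51 without either DMSO library of DHX35-dTAG cells, and none of the 4 genes was called in these fits. Wdr83 had a log2 fold change (dTAG-13 minus DMSO) of 0.091 with a standard error of 0.290, a 95% interval of -0.564 to 0.745 and an adjusted p of 1 (unadjusted p = 0.761) by edgeR. The log2 fold change was -0.028 for Wdr83os (standard error 0.177, interval -0.428 to 0.372), -0.019 for Dhps (standard error 0.099, interval -0.242 to 0.204) and 0.063 for Man2b1 (standard error 0.101, interval -0.164 to 0.291), each with an adjusted p of 1 by edgeR. The 2 dTAG-13 values of Man2b1 both lay above its 2 DMSO values, as was the case for 21.5% of all genes, and the groups of the other 3 genes overlapped. With each library left out in turn, the values ran from -0.053 to 0.218 for Wdr83, from -0.17 to 0.095 for Wdr83os, from -0.097 to 0.055 for Dhps and from 0.034 to 0.089 for Man2b1, and the sign turned for Wdr83 without GPATCH1-dTAG dTAG-13 replicate 1 and for Wdr83os and Dhps without replicate 2 of either GPATCH1-dTAG group. The interval of Wdr83 was the widest because all 8 libraries share 1 estimate of the spread per gene, and its 2 DMSO libraries of DHX35-dTAG cells differed. With only the 4 libraries of GPATCH1-dTAG cells in the fit, the unadjusted p of Wdr83 was 0.416 and the adjusted p 0.812 by edgeR, with the same log2 fold change of 0.091.

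The 2 lines were next compared under dTAG-13, where again no library was singled out. In this line difference, 15 genes (0.0916%) passed the adjusted threshold and none of the 4 was among them, nor among the 1386 (8.47%) with an unadjusted p under 0.05. The count past the adjusted threshold depended on the libraries in the fit. It was 342 with only the 4 libraries compared, and none of the 4 genes was called in that fit. Man2b1 had the largest value, a log2 difference (GPATCH1-dTAG minus DHX35-dTAG) of 0.205 with a standard error of 0.101, an interval of -0.025 to 0.434 and an adjusted p of 0.651 (unadjusted p = 0.0746) by edgeR. The difference was 0.118 for Dhps (standard error 0.099, adjusted p = 0.844), 0.084 for Wdr83 (standard error 0.293, adjusted p = 0.977) and -0.147 for Wdr83os (standard error 0.177, adjusted p = 0.908) by edgeR. The intervals ran from -0.108 to 0.343 for Dhps, from -0.578 to 0.745 for Wdr83 and from -0.549 to 0.254 for Wdr83os. The groups did not overlap for Man2b1 and Dhps (higher in GPATCH1-dTAG cells, as were 21.8% of all genes) and for Wdr83os (lower, as were 23.9%), while those of Wdr83 overlapped. Values anywhere within these intervals are compatible with the counts, so a missed threshold does not show that the lines were alike. For Man2b1 the difference was 0.109 without DHX35-dTAG dTAG-13 replicate 2 and 0.307 without replicate 1 of that group, and without GPATCH1-dTAG dTAG-13 replicate 1 or 2 it was -0.06 and 0.211 for Wdr83, 0.039 and 0.192 for Dhps and -0.288 and -0.022 for Wdr83os. The sign of Wdr83 thus turned with 1 library.

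The remaining comparisons hold DHX35-dTAG DMSO replicate 1 and are described without a test. For DHX35 depletion, the log2 fold change (dTAG-13 minus DMSO) was -0.60 for Wdr83 (standard error 0.29), -0.26 for Wdr83os (0.175), -0.10 for Dhps (0.10) and -0.12 for Man2b1 (0.10). Without that library, it was 0.019 for Wdr83, -0.028 for Wdr83os, -0.058 for Dhps and -0.06 for Man2b1. Both dTAG-13 values of Wdr83os and of Dhps lay below both DMSO values, as for 14.1% of all genes, and nothing is read from this. Between the lines in DMSO (GPATCH1-dTAG minus DHX35-dTAG), the log2 difference was -0.61 for Wdr83, -0.38 for Wdr83os, 0.035 for Dhps and 0.023 for Man2b1. Without DHX35-dTAG DMSO replicate 1, these values were 0.013, -0.156, 0.076 and 0.081. The response to GPATCH1 depletion minus that to DHX35 depletion was 0.69 for Wdr83 (standard error 0.41), 0.23 for Wdr83os (0.25), 0.083 for Dhps (0.14) and 0.18 for Man2b1 (0.14). Without that library, it was 0.075, 0.013, 0.043 and 0.124 in the same order.

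**Figure D5:**
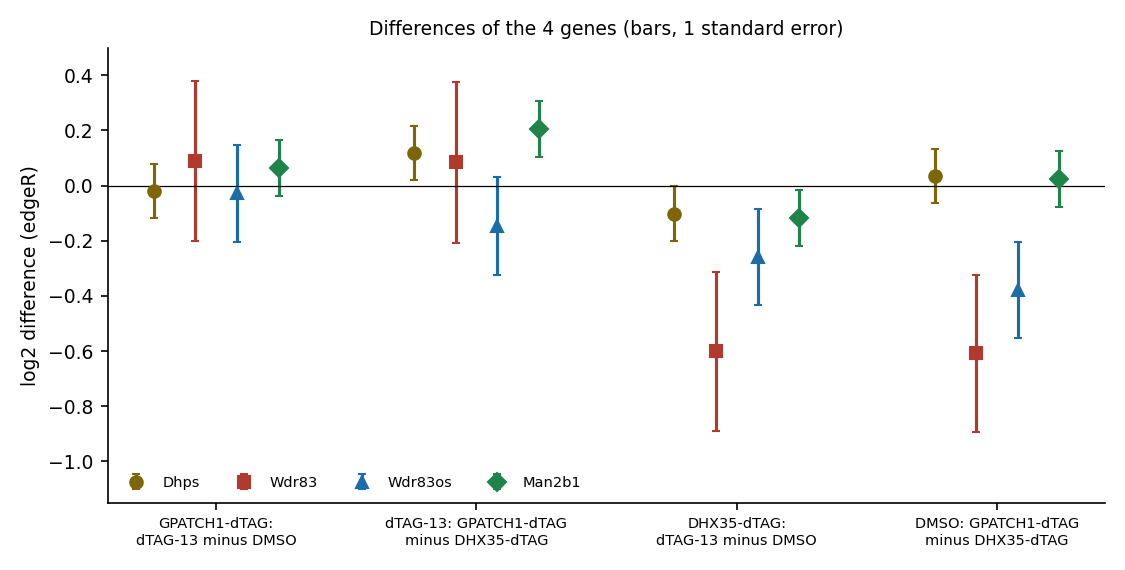
Log2 differences of the 4 genes from edgeR in 4 comparisons, with bars of 1 standard error. In the tested pair on the left, all values lie between -0.147 and 0.205, and in the pair on the right, which holds DHX35-dTAG DMSO replicate 1, Wdr83 lies at -0.60 and -0.61.

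The partners of each protein were read from lists of known genes, all of which were tested. Of 8 genes that encode DHX35, GPATCH1 and splicing discard factors, 0 rose and 0 fell on GPATCH1 depletion, with a median log2 fold change of 0.046 (all genes, 0.003) and the largest values at Tfip11, the G-patch activator of DHX15 (0.174), and Dhx35 (0.091). Under dTAG-13, 1 of the 8 differed between the lines, against 0.0916% of all genes. Gpatch1 stood lower in the GPATCH1-dTAG line, at a difference of -1.72 on the log2 scale (adjusted p = 0.000885 by edgeR, standard error 0.12), while Dhx35 had -0.404 (adjusted p = 0.265 by edgeR). Gpatch1 is the gene that carries the tag in that line, and its difference in DMSO was -1.78.

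Of 7 partners of the MORG1 scaffold, 0 passed on GPATCH1 depletion or between the lines, with medians of 0.034 and 0.009. The values farthest from 0 were Lamtor3, the MEK partner MP1 (-0.191), and Map2k2, a MAP kinase kinase (0.101), on GPATCH1 depletion, and Egln3, a HIF prolyl hydroxylase (-0.300), and Lamtor3 (-0.137) between the lines. Of 8 genes of the PAT complex and the multipass translocon, 0 passed in either comparison, with medians of 0.045 and 0.020. Their largest values were Sec61b (0.113) and Nomo1 (0.107) on depletion, and Nomo1 (0.159) and Sec61g (0.149) between the lines. None of these partners passed the threshold in either comparison, and neither did Wdr83 or Wdr83os.

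For Dhps, 10 genes of hypusine and polyamine metabolism were examined and 0 passed in either comparison. On GPATCH1 depletion, the median was 0.106, the largest values being Dohh, the hydroxylase that completes hypusine (0.249, standard error 0.338), and Azin1, the antizyme inhibitor (0.146, standard error 0.091). Between the lines, the median was 0.077 (all genes, -0.006), with Sms, spermine synthase, at 0.211 and Eif5a2 at 0.180. Dohh was a further gene with a high level in DHX35-dTAG DMSO replicate 1, at 55.0 CPM against 21.1 to 28.9 in the others. Of the same list, Odc1 was also above its other libraries there (463 CPM against 393 to 444). Eif5a2 (10.2 CPM against 15.9 to 20.4), Eif5a and Oaz1 were below theirs, and the rest lay inside their ranges. For Man2b1, 10 genes of lysosomal glycoprotein degradation gave 0 calls in either comparison, with medians of 0.046 and 0.092. Their largest values were Glb1, the lysosomal beta-galactosidase (0.281), and Aga, aspartylglucosaminidase (-0.169), on depletion, and Aga (0.454) and Man2b2, another alpha-mannosidase (0.245), between the lines, where Aga had only 0.427 to 2.01 CPM. The 20 tested neighbours within 250 kb likewise gave 0 calls, with medians of 0.031 on GPATCH1 depletion and -0.007 between the lines and values up to 0.843 for Zfp791, a zinc finger gene with only 1.37 to 3.72 CPM.

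Genes with a profile like that of Wdr83 were ranked by Pearson's r of log2 CPM over libraries, among 14605 genes with a mean of at least 1 CPM. These libraries share lines, treatments and depth, so r is given as a description. Over the 8 libraries, the highest were Psmb4, a proteasome subunit (r = 0.999), Rprl3, an RNase P RNA-like gene whose near-identical copies make its counts uncertain (0.995), Sap30, a subunit of the Sin3 histone deacetylase complex (0.995), Ajuba, a LIM domain gene (0.994), and Spr, sepiapterin reductase (0.994). Each of them was highest in DHX35-dTAG DMSO replicate 1, for example Psmb4 at 282 CPM against 182 to 206 in the others and Spr at 98.5 against 48.6 to 56.0. An r of at least 0.9 was reached by 920 genes (6.30%). Over the 7 libraries without it, 51 genes (0.349%) did, with Psmb4 again first (0.985), followed by the processed pseudogene Gm11478, equally uncertain (0.974), Clic1 (0.968), Tkt (0.968) and Sphk2 (0.968). Psmb4 was therefore the 1 gene in the first 5 of both rankings.

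Among the 4 genes, the profile of Wdr83os had an r of 0.845 with Wdr83 over 8 libraries and of 0.235 over 7. For Dhps the values were 0.420 and 0.606, and for Man2b1 0.362 and 0.590. Dhps and Man2b1, which share no bases, had 0.738 and 0.721. The likeness of Wdr83 and Wdr83os thus rested on the 1 library in which both were high.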

How the data were processed

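RNA was measured in 8 libraries of mouse embryonic stem cells, grouped by the sample titles. Per the labels and the methods, the authors added human DLD-1 RNA as a spike-in, removed ribosomal RNA and made stranded paired-end libraries. Their processing notes name FastQC 0.11.9, Trim Galore 0.6.6, STAR 2.7.5c and DESeq2 1.26.0, with mm10 and hg19. The counting program, its annotation and its strand setting are not given in the sources used here. The authors deposited raw counts per gene, without normalization, for 55291 symbols, of which 53292 matched GENCODE M21 (GRCm38). Total counts ranged from 12014203 to 14994173.

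The members and gene lists were chosen with earlier results of these data known. The genes named outside the 4 were those past the threshold in a list or else the 2 with the largest absolute value, the ends of the neighbourhood's range, and the 5 most like Wdr83. Fbxw9, Rnaseh2a and the levels of Dohh, Odc1, Eif5a2, Eif5a and Oaz1 in DHX35-dTAG DMSO replicate 1 were added once their values had been seen.

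The tests used edgeR 4.0.16 under R 4.3.3 (filterByExpr, TMM, glmQLFit and glmQLFTest with 1 term per group over all 8 libraries, Benjamini-Hochberg adjustment over 16371 genes, threshold 0.05). Intervals of log2 differences are the estimate and its standard error with the test's degrees of freedom. CPM used TMM-scaled library sizes, and log2 CPM a prior count of 2. Between replicates the common dispersion came to 0.0125, or 11.2% as a coefficient of variation. The procedure was tested on simulated data. The replicates of a group differed by 3.57 to 79.1 in chi-square per gene, so the 2 libraries of a group were not copies of each other. Libraries of different groups were not compared in this way. Alternatives were each library left out, DESeq2 1.42.0, its size factors, other count filters, a replicate block and a fit to just the 4 libraries of a comparison. After seeing the data, limma-voom with quality weights (limma 3.58.1) and a fit without the 2 most highly counted genes were added, as were the line difference in DMSO and the difference between the responses without DHX35-dTAG DMSO replicate 1. Promoter windows were from RefSeq's GRCm38.p6. GC content and length were read from the longest coding transcript of GENCODE M21.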

Additional observations from a re-analysis of the deposited data

How the results depend on the processing

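In the tested comparisons, none of the 4 genes passed the adjusted threshold under any of 16 alternatives each, and the lowest adjusted p was 0.172 by edgeR (Man2b1 in the line difference under dTAG-13, without DHX35-dTAG DMSO replicate 1, unadjusted p = 0.0198). The sign held in all 16 for Man2b1 in both comparisons and for Dhps and Wdr83os in the line difference. It held in 14 of 16 for Dhps and Wdr83os and in 15 of 16 for Wdr83 on GPATCH1 depletion, and in 15 of 16 for Wdr83 in the line difference. Over the alternatives, Wdr83 ranged from -0.053 to 0.218 on GPATCH1 depletion and from -0.06 to 0.211 between the lines. In the description of DHX35 depletion, leaving out each library in turn gave -1.034 to 0.019 for Wdr83 and -0.451 to -0.028 for Wdr83os, and both values nearest to or above 0 (0.019 and -0.028) came without DHX35-dTAG DMSO replicate 1. No normalization moved the median of all genes by over 0.1 on the log2 scale. Such scaling sets most genes near 0 by design, so this cannot show whether all genes shifted together. The human spike-in was not used for scaling.

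The number of genes called depended more on the fit. On GPATCH1 depletion, 0 genes became 21 without an expression filter, 127 with only the 4 libraries compared, 35 with limma-voom and 0 to 51 with each library left out, 51 coming without either DMSO library of DHX35-dTAG cells. In the line difference, 15 genes became 47 with DESeq2, 158 without a filter, 4 where each library had to hold at least 10 counts of a gene, 342 with only the 4 libraries compared, 237 with limma-voom and 4 to 660 with each library left out, with 660 and 651 without DMSO replicate 1 or 2 of DHX35-dTAG cells, and 4 or 5 without any 1 of the 4 libraries compared.

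The differences between replicates correlated between groups by 0.0372 to 0.23, which does not settle whether the replicate numbers pair the libraries. The main fit did not pair them. With a replicate block, 0 and 19 genes were called, Wdr83 had 0.088 on GPATCH1 depletion and 0.076 between the lines, and none of the 4 genes passed (Man2b1 between the lines, 0.206, unadjusted p = 0.0468, adjusted p = 0.509 by edgeR).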
